A study of Homo sapiens with 6 samples.

Results

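The 10 core genes of the TGF-beta pathway were examined in RNA-seq libraries from MDA-MB-231 cells and from the Adriamycin-resistant line derived from them. They are the ligand genes TGFB1, TGFB2 and TGFB3, the receptor genes TGFBR1, TGFBR2 and TGFBR3, and the signal transducer genes SMAD2, SMAD3, SMAD4 and SMAD7. They were chosen by gene name, and each had a single row among the 58735 genes of the count table. All 10 passed the filter on low counts, as did 15242 genes in all. MDA-MB-231 is a mesenchymal triple-negative breast cancer line, and Adriamycin (ADR, doxorubicin) is an anthracycline that poisons topoisomerase II. The parent cells (3 libraries, genotype given as WT) were the unselected line. The ADRr cells (3 libraries, genotype given as ADR resistant) had been selected in rising doses of ADR, after which single cells were cloned by limiting dilution, so selection and founding cell cannot be told apart in what sets them off from the uncloned parent culture. The comparison asks how RNA levels differ between the resistant line and the line it came from. The labels name no drug exposure at harvest and do not say whether the libraries of a group came from separate cultures, so the p-values measure the spread between these libraries only. The series text mentions sampling at 3 times, which no sample label gives. The libraries of a group were therefore treated as replicates.

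TGF-beta is secreted as a latent dimer that is bound to latent TGF-beta binding proteins in the matrix. Once released, it binds the type II receptor TGFBR2, which recruits and phosphorylates the type I receptor TGFBR1, while TGFBR3 (betaglycan) presents ligand, TGF-beta 2 above all. The active receptor phosphorylates SMAD2 and SMAD3, which join SMAD4 and act on genes in the nucleus, and SMAD7 is an induced inhibitor of the receptor. In breast epithelium the pathway restrains growth, and in advanced breast cancer it is known for its part in invasion and epithelial-mesenchymal transition.

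Total counts ranged from 15983985 to 18272314 per library, and 3 counts, the most that a count of 0 allows, were 0.164 to 0.188 CPM (counts relative to library depth), for counting error only. Within a group, no 2 libraries agreed within sampling noise. Of the 4 luminal markers, ESR1 and PGR had a mean of at most 0.0182 CPM in either group, whereas CDH1 was called lower (14.7 CPM in parent and 7.04 CPM in ADRr cells) and EPCAM higher (12.5 and 26.9 CPM). The 4 luminal markers summed to 26 to 28.4 CPM in parent and 32.6 to 35 CPM in ADRr libraries. The 4 mesenchymal markers summed to 3630 to 3730 CPM per library, with CD44 higher (log2 fold change 0.80), VIM (-0.56) and AXL (-0.62) lower and MSN not called. Leukocyte markers (0 of 4) and endothelial markers (0 of 3) did not reach a mean of 1 CPM in either group. Of the 4 fibroblast markers, PDGFRB and LUM were above it in both groups, the summed level was 65.1 to 69.1 CPM in parent cells and 10.6 to 12.4 CPM in ADRr cells, and DCN had no count. The part of these differences in the results below was not tested.

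Of the 10 genes, 5 were higher and 4 lower in ADRr cells, and TGFBR1 was not called. A call required a 1.2-fold change (0.263 on the log2 scale) together with an adjusted p no greater than 0.05 in edgeR's quasi-likelihood test. By the same rule 29.2% of all tested genes were higher and 29.6% lower, and the counts among the 10 genes are read against these shares. In such bulk samples fewer cells of a type and less RNA per cell cannot be told apart. The median absolute log2 fold change was 0.75 over the 10 genes and 0.46 over all tested genes. In 9 of the 10 genes the 3 ADRr libraries did not overlap the 3 parent libraries, as in 69.2% of all tested genes.

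**Figure D1:**
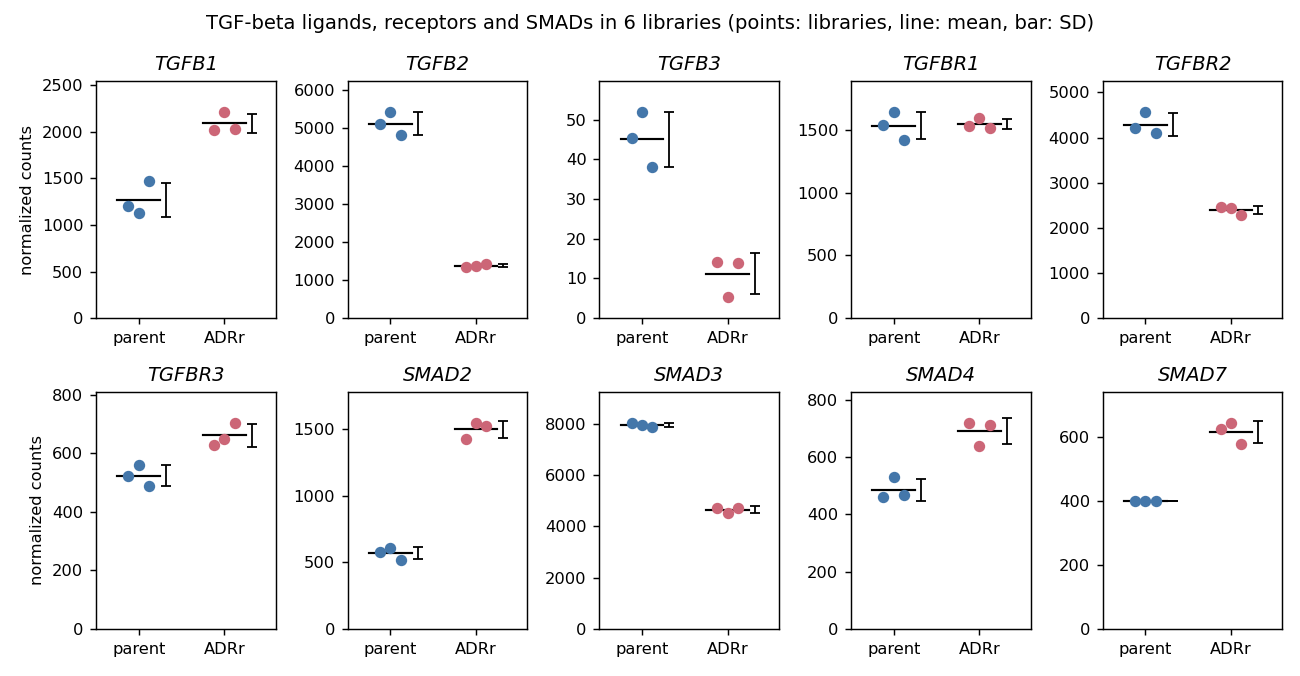
Normalized counts (vertical axes from 0, a scale of its own for each gene) of the 10 genes in 3 parent and 3 ADRr libraries, with each point a library, the line the mean and the bar the SD. The groups are apart for every gene but TGFBR1, with TGFB2, TGFB3, TGFBR2 and SMAD3 lower and the other 5 higher in ADRr cells.

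The ligand genes moved in opposite directions, and the DNA just before their transcription starts is shown here for comparison. The 120 bases before the most upstream RefSeq start of each ligand gene are given 5′ to 3′ (GRCh38.p14, minus strand for TGFB1 and TGFB3, plus strand for TGFB2). Capitals mark every match, on either strand, to letters given below. These stand for a GC box, a TATA box, an E-box and the core of a cAMP response element. None of the matches overlap each other.
TGFB1, chr19:41353923-41354042: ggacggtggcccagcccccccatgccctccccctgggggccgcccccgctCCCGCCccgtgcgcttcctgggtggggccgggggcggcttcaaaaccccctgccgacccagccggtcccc
TGFB2, chr1:218345216-218345335: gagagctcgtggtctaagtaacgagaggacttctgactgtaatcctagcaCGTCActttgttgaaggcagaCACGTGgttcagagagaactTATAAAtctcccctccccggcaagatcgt
TGFB3, chr14:75983012-75983131: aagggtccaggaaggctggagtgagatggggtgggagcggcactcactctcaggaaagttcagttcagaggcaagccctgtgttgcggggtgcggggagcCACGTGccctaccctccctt
The TGFB1 stretch was 80.8% G and C. It held a match to GGCGGG, the letters searched for a GC box, as did 33.6% of the 35116 RefSeq windows of the same length. The form GGGCGG of the GC box was not searched, and its copies in this stretch are not marked or counted. The TGFB2 stretch was 49.2% G and C and held a TATA box, searched as the letters TATAAA and found in 5.63% of windows. It also held an E-box, for which the palindrome CACGTG was searched and which 3.90% of windows have. Its cAMP response element core, searched as TGACG, was found in 13.3% of windows. The TGFB3 stretch was 62.5% G and C and held an E-box. TGFB3 has 2 starts in RefSeq, and only the outer is shown. The stretches of the receptor and SMAD genes, taken in the same way, held no E-box. These include TGFBR2 and SMAD3, which were lower in ADRr cells. No readout of binding or chromatin was taken, and the matches describe the letters only.

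TGFB1 encodes the ligand best known in tumors. It had 1206, 1126 and 1466 normalized counts in parent replicates 1 to 3 and 2021, 2210 and 2029 in ADRr replicates 1 to 3. Every ADRr library lay above every parent library, and the mean rose from 1266 ± 178 to 2087 ± 107 (SD, n = 3 each), which is 1.65-fold. The log2 fold change was 0.72 (standard error, SE, 0.076, edgeR adjusted p = 2.07e-08). The gene lies on the minus strand of chromosome 19 from 41301587 to 41353911 (GRCh38). Of its exonic bases, 215 (6.64%) are shared with HNRNPUL1 on the other strand. HNRNPUL1 had 6458 to 10264 counts and a log2 fold change of -0.52. The strand setting of the counting is not given in the sources used here, so reads over the shared bases could not be assigned with certainty.

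TGFB2 encodes a ligand that depends on betaglycan for full receptor binding, and it showed the most precisely measured decrease of the ligands. The parent libraries held 5100, 5425 and 4828 normalized counts and the ADRr libraries 1352, 1364 and 1428. All ADRr libraries were far below all parent libraries, and the mean fell from 5118 ± 299 to 1381 ± 40.8 (SD, n = 3 each), to 0.27 of the parent level. The log2 fold change was -1.89 (SE 0.057, edgeR adjusted p = 7.07e-18). TGFB2 spans 218346235 to 218444619 on chromosome 1, and TGFB2-OT1, a gene on the same strand that shares 1371 of its exonic bases (26.6%), had no count in any library. The methods do not say how reads over both genes were counted. That absence of counts therefore does not show whether reads over the shared bases were counted for TGFB2.

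TGFB3 was the scarcest of the 10 genes. It had only 44, 48 and 39 counts in the parent libraries and 15, 5 and 15 in the ADRr libraries before normalization. The groups did not overlap, and the normalized mean fell from 45.1 ± 6.97 to 11.2 ± 5.15 (SD, n = 3 each). Its log2 fold change of -1.98 (adjusted p = 4.30e-05 from edgeR) had a standard error of 0.36, more than that of any other of the 10 genes, and a 95% confidence interval of -2.72 to -1.24. Its size is thus known less well than that of TGFB2. The gene lies on chromosome 14 from 75958099 to 75982991.

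Levels of different genes were compared as FPKM (fragments scaled to gene length and library depth). TGFB2 made up 72.2, 74.6 and 67.1% of the summed FPKM of the 3 ligand genes in parent replicates 1 to 3 and 29.5, 27.9 and 30.6% in ADRr replicates 1 to 3. TGFB1 made up 27.1, 24.6 and 32.4% in the parent and 70.2, 72.0 and 69.1% in the ADRr libraries. TGFB2 was thus the main ligand transcript in every parent library and TGFB1 in every ADRr library. TGFB3 held at most 0.749% in any library. The summed level of the ligands was 79.7 ± 0.978 FPKM in parent cells and 52.5 ± 1.62 FPKM in ADRr cells (SD, n = 3 each), lower in all ADRr libraries than in any parent library.

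**Figure D2:**
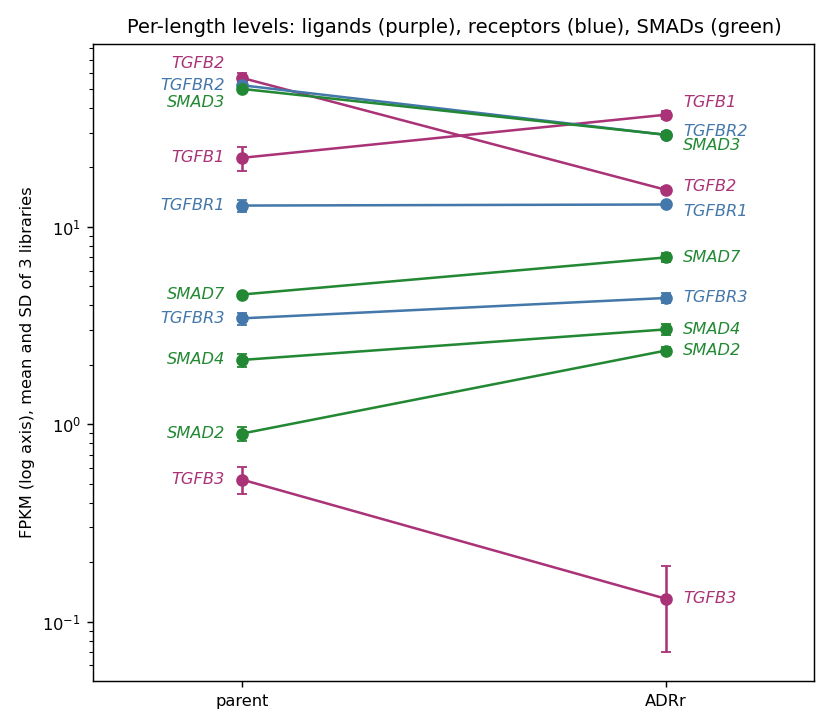
Mean FPKM (log axis, bars the SD of 3 libraries) of the 10 genes in parent and ADRr cells, with ligands in purple, receptors in blue and SMADs in green. The lines of TGFB1 and TGFB2 cross, TGFBR1 is level at 12.8 and 13.0 FPKM, and TGFBR2 and SMAD3 lie on each other in both groups.

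Among the receptors, TGFBR2 fell, TGFBR3 rose a little and TGFBR1 was not called. TGFBR2, the ligand-binding kinase, had 4204, 4566 and 4095 normalized counts in the parent libraries and 2453, 2449 and 2286 in the ADRr libraries. The groups were well apart, with means of 4288 ± 247 and 2396 ± 95.2 (SD, n = 3 each), and the log2 fold change came to -0.84 (SE 0.056, edgeR adjusted p = 7.60e-12). TGFBR2 lies on chromosome 3 from 30606502 to 30694142. TGFBR1, the kinase that phosphorylates SMAD2 and SMAD3, had 1535, 1642 and 1422 normalized counts in parent and 1532, 1595 and 1518 in ADRr libraries. The ADRr values fell inside the parent range, and the log2 fold change was 0.01 with a 95% confidence interval of -0.12 to 0.14 (edgeR adjusted p = 0.852), which leaves room for a small change in either direction. TGFBR1 lies on chromosome 9 from 99104038 to 99154192.

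TGFBR3, the co-receptor betaglycan, gave 523.8, 559.3 and 487 normalized counts in parent and 630, 649.9 and 705.1 in ADRr libraries. The groups were close but did not overlap. The mean went from 523 ± 36.1 to 662 ± 38.9 (SD, n = 3 each), 1.27-fold, on the log2 scale 0.34 (SE 0.082, edgeR adjusted p = 8.98e-04), the smallest of the called changes. It lies on chromosome 1 from 91680343 to 91906335. Of the summed FPKM of the kinase receptors TGFBR1 and TGFBR2, TGFBR1 held 19.7 ± 0.408% in parent and 30.8 ± 0.663% in ADRr libraries (SD, n = 3 each), without overlap between the groups.

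The SMAD genes also split. SMAD3, a receptor-activated SMAD, had the most counts of the 10 genes, with 8040, 7966 and 7888 normalized counts in the parent and 4724, 4502 and 4715 in the ADRr libraries. All ADRr libraries lay below all parent libraries, and the mean fell from 7965 ± 75.9 to 4647 ± 126 (SD, n = 3 each), by -0.78 on the log2 scale (SE 0.047, edgeR adjusted p = 1.60e-12). SMAD2, the other receptor-activated SMAD, had 580.4, 610.1 and 520.1 normalized counts in the parent and 1424, 1549 and 1521 in the ADRr libraries. It rose from 570 ± 45.9 to 1498 ± 65.8 (SD, n = 3 each), 2.63-fold, the largest increase among the 10 genes, on the log2 scale 1.39 (SE 0.072, edgeR adjusted p = 9.83e-14). SMAD2 thus made up 1.76 ± 0.13% of the summed FPKM of both genes in parent and 7.48 ± 0.457% in ADRr libraries (SD, n = 3 each), without overlap and with the long gene model of SMAD2 described below. SMAD2 lies on chromosome 18 from 47808957 to 47931146 and SMAD3 on chromosome 15 from 67063763 to 67195195.

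SMAD4, the shared partner that SMAD2 and SMAD3 need, had 462.1, 529 and 466.5 normalized counts in the parent and 720.4, 640.5 and 713.5 in the ADRr libraries. It rose from 486 ± 37.4 to 692 ± 44.3 (SD, n = 3 each), on the log2 scale 0.51 (SE 0.083, edgeR adjusted p = 1.17e-05). The inhibitor SMAD7 had 399.3, 399.2 and 400.3 normalized counts in the parent and 622.4, 643.6 and 576.2 in the ADRr libraries. It rose 1.54-fold, on the log2 scale 0.62 (SE 0.082, edgeR adjusted p = 7.23e-07). For both genes every ADRr library was above every parent library. SMAD4 (51028394 to 51085045) and SMAD7 (48919853 to 48952052) lie on chromosome 18, near SMAD2.

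Per length, TGFB2 (56.8 ± 3.36 FPKM), TGFBR2 (52.1 ± 3.00) and SMAD3 (49.96 ± 0.623) had the highest levels in parent cells. The spread of TGFBR2 overlapped that of TGFB2 and that of SMAD3, whereas those of TGFB2 and SMAD3 were apart. Within each parent library TGFB2 was highest, then TGFBR2 and then SMAD3. TGFB1 (22.4 ± 3.09) and TGFBR1 (12.8 ± 0.931) followed, each apart from its neighbours in the order. In ADRr cells TGFB1 was highest (37.0 ± 1.80), ahead of SMAD3 (29.3 ± 0.865) and TGFBR2 (29.2 ± 1.10), which did not differ beyond their spread, then TGFB2 (15.4 ± 0.488) and TGFBR1 (13.0 ± 0.308). SMAD7, TGFBR3, SMAD4, SMAD2 and TGFB3 followed in that order in both groups, each apart from the next by more than its SD, from 7.00 down to 0.131 FPKM in ADRr cells (all SD, n = 3). Parts of this order rest on the length used, since the gene model of SMAD2 alone has 36366 bases. When every gene was divided by its shortest principal coding transcript instead (12075 bases for SMAD2), SMAD3 came ahead of TGFB2 in parent cells, at 72.9 against 58.9. In ADRr cells TGFB1 and SMAD3 were then almost level, at 43.2 and 42.7. TGFBR3 came ahead of SMAD7 in parent (7.62 against 5.16) and in ADRr cells (9.67 against 7.95), and SMAD2 came ahead of SMAD4 in ADRr cells (7.11 against 4.67).

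The 10 genes lie on 7 chromosomes, and their changes were set beside those of their 50 nearest tested genes. SMAD2, SMAD4 and SMAD7 lie within a stretch of chromosome 18 in which genes were mostly higher in ADRr cells. The median log2 fold change was 0.60 around SMAD2, 0.63 around SMAD4 and 0.67 around SMAD7, with 34 of 50 neighbours called higher in each case. These sets share 44 to 47 genes, and each contains the other SMAD genes of this stretch, so they are not separate observations. SMAD4 and SMAD7 lay close to the median of their neighbours (differences of -0.12 and -0.05), though with 25 neighbours SMAD4 lay 0.50 below a median of 1.01, whereas SMAD2 was 0.79 above it and exceeded 38 of its 50 neighbours. On chromosome 18 from 20 Mb on, 142 other genes had a median of 0.67, and 68.3% were called higher.

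SMAD3 lay in a stretch of chromosome 15 with lower values. Its 50 neighbours had a median log2 fold change of -0.54, with 31 called lower and 4 higher, and SMAD3 itself was 0.23 below that median, lower than 32 of them. TGFBR2 had neighbours with a median of -0.18 (23 lower, 8 higher) and lay 0.66 below it. That median moved with the number of neighbours, to -0.34 with either 25 or 100. The ligands lay away from the medians around them. TGFB3 changed more in the downward direction than all 50 of its neighbours (median 0.07), TGFB2 more than 47 of 50 (median 0.18, or -0.20 with 25 neighbours), and TGFB1 exceeded 44 of 50 (median -0.06). With 100 neighbours, 20 had a larger log2 fold change than TGFB1. The nearest tested gene to TGFB2, TGFB2-AS1, fell further than TGFB2 (-2.72). The part of the neighbourhood in any of these changes was not tested, and no DNA was measured.

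**Figure D3:**
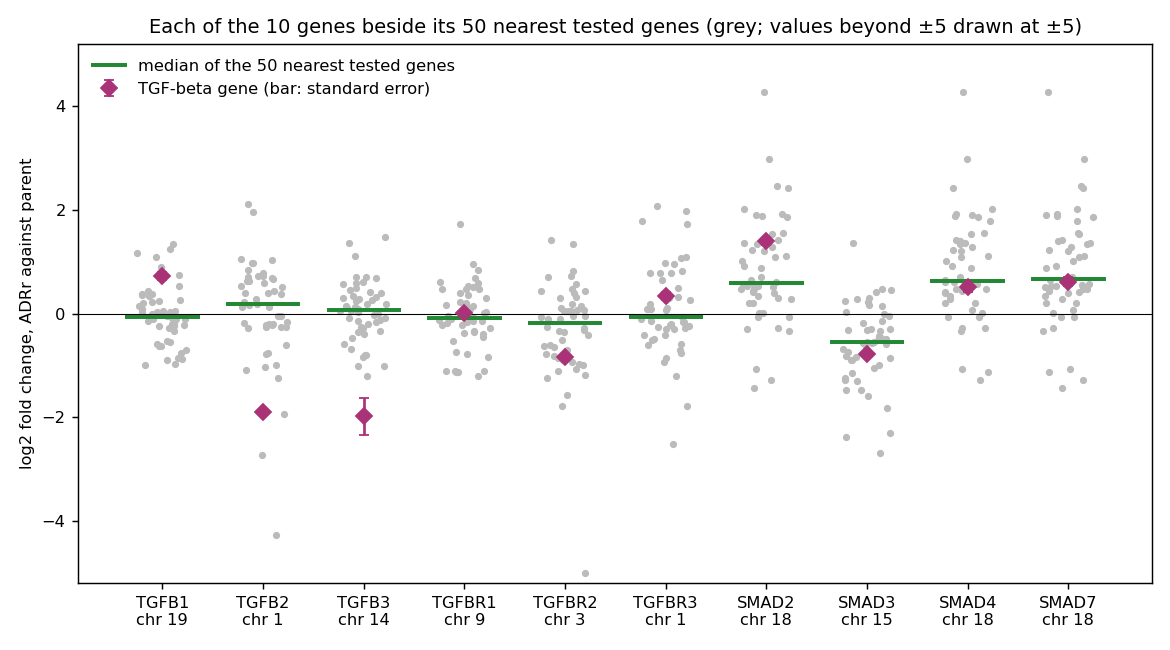
Log2 fold change (ADRr against parent) of the 10 genes (purple diamonds, bar the standard error) with their 50 nearest tested genes (grey points) and the median of these (green line), values beyond 5 in either direction being drawn at 5. SMAD4 and SMAD7 sit on the raised medians of chromosome 18 and SMAD3 near the lowered median of chromosome 15, whereas TGFB1, TGFB2 and TGFB3 lie away from theirs.

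Other genes of the pathway were described in 4 lists, which leave out the 10 genes but not the neighbours described above. They were read against the shares of all tested genes, 29.2% higher and 29.6% lower, and a median log2 fold change of -0.006. Most genes that store or activate latent ligand were lower in ADRr cells. Of 18 such genes 13 were tested, and 9 of these (69.2%) were called lower and 2 (15.4%) higher, with a median of -0.90. The other 5, LRRC32, ITGB6, DCN, BGN and ASPN, had at most 6 counts in a library. THBS1, thrombospondin 1, which can release TGF-beta from its latent form, went from 76710 ± 2293 to 23570 ± 379 normalized counts. LTBP3, a matrix protein that holds latent complexes, had a log2 fold change of -1.58 (SE 0.078). LTBP2, a related matrix protein, had one of -1.20 (0.11). NRROS, which anchors latent TGF-beta 1 on cells of the myeloid lineage and microglia, was higher (1.19, 0.17), as was the integrin subunit ITGB3 (0.69, 0.17).

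The activin and BMP branches of the family share SMAD4 with TGF-beta. Of 35 ligands, receptors and antagonists 20 were tested, with 9 higher and 9 lower (45% each) and a median log2 fold change of 0.07. The 15 others had at most 12 counts in any library. GDF15, a distant member that signals through its own receptor and is induced by cell stress, rose from 314 ± 73.7 to 5018 ± 179 normalized counts (SD, n = 3 each), on the log2 scale 3.99 (SE 0.096). BMP4, which signals through SMAD1 and SMAD5, fell from 4788 ± 183 to 1022 ± 22.4, a change of -2.23 (SE 0.056). The activin subunit gene INHBA (-1.84) and the activin antagonist FST, follistatin (-2.21), were both lower. Of the receptors, ACVR2A, an activin type II receptor, rose by 0.76, and ENG, endoglin, a co-receptor typical of endothelium, rose from 22.9 ± 1.10 to 65.0 ± 9.63 normalized counts (SD, n = 3 each). All adjusted p-values of the genes named from these lists were at most 0.00974 in edgeR's test.

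SMAD partners and regulators had a median absolute log2 fold change of 0.33. Of 27 genes 25 were tested, with 7 higher (28%), 8 lower (32%) and 10 not called, shares near those of all genes. NEDD4L, a ubiquitin ligase that marks activated SMAD2 and SMAD3 for degradation, rose from 3283 ± 77.2 to 11980 ± 230 normalized counts, 1.87 on the log2 scale. NEDD4L lies on chromosome 18, among the neighbours of SMAD2, SMAD4 and SMAD7 described above. TGIF1 (0.86), a co-repressor that binds SMAD2, is on the same chromosome but in none of these sets of neighbours. The ubiquitin ligase SMURF1 rose by 0.57. SMAD6, the inhibitory SMAD of the BMP branch and a gene of chromosome 15, fell from 517 ± 63.1 to 80.4 ± 14.3, a change of -2.68 (SE 0.13). PMEPA1 (-0.98) and SKIL (-0.62), feedback inhibitors that TGF-beta itself induces, were lower, whereas the feedback inhibitor SMAD7 was higher. USP11, a deubiquitinase, was lower as well (-0.68), and SMAD1 was lower (-0.66, SE 0.22, adjusted p = 0.00974) in the counts but not called on FPKM (adjusted p = 0.0808 and 0.0920 from limma, by pseudocount).

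Genes known as TGF-beta targets went both ways. Of 33 such genes 28 were tested, with 11 higher (39.3%) and 12 lower (42.9%), and the median log2 fold change was -0.03. Among those lower were COL1A2, a collagen I chain, with 1192, 1060 and 1182 counts in the parent and 4, 11 and 5 in the ADRr libraries (log2 fold change -7.47, or -8.07 without ADRr replicate 2), and CCN2 (connective tissue growth factor), at 4741 ± 121 and 1390 ± 37.2 normalized counts (log2 fold change -1.77). The summed fibroblast markers were lower in ADRr cells too, as given above. Most of that sum was PDGFRB, at 62.7 CPM in parent and 8.38 CPM in ADRr cells, with LUM at 4.57 and 2.86 CPM. THY1 had a mean of 0.158 CPM in parent and 0 CPM in ADRr cells, and DCN had no count. ID1 fell from 3892 ± 388 to 173 ± 22.4 normalized counts (-4.49, SE 0.090) and ID3 from 1198 ± 170 to 80.7 ± 17.98 (-3.90, SE 0.13). ID genes encode inhibitors of differentiation and are best known as direct targets of BMP and SMAD1/5 signalling. ID2, which was picked out after its values were seen, went the same way (-2.91). Targets that were higher included CDKN1A (2.89), the cell cycle inhibitor p21 and a p53 target too, and IL11 (2.31), a cytokine. PDGFB (1.12), a growth factor gene, was also higher, with 25, 28 and 59 counts in the parent and 84, 83 and 88 in the ADRr libraries.

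**Figure D4:**
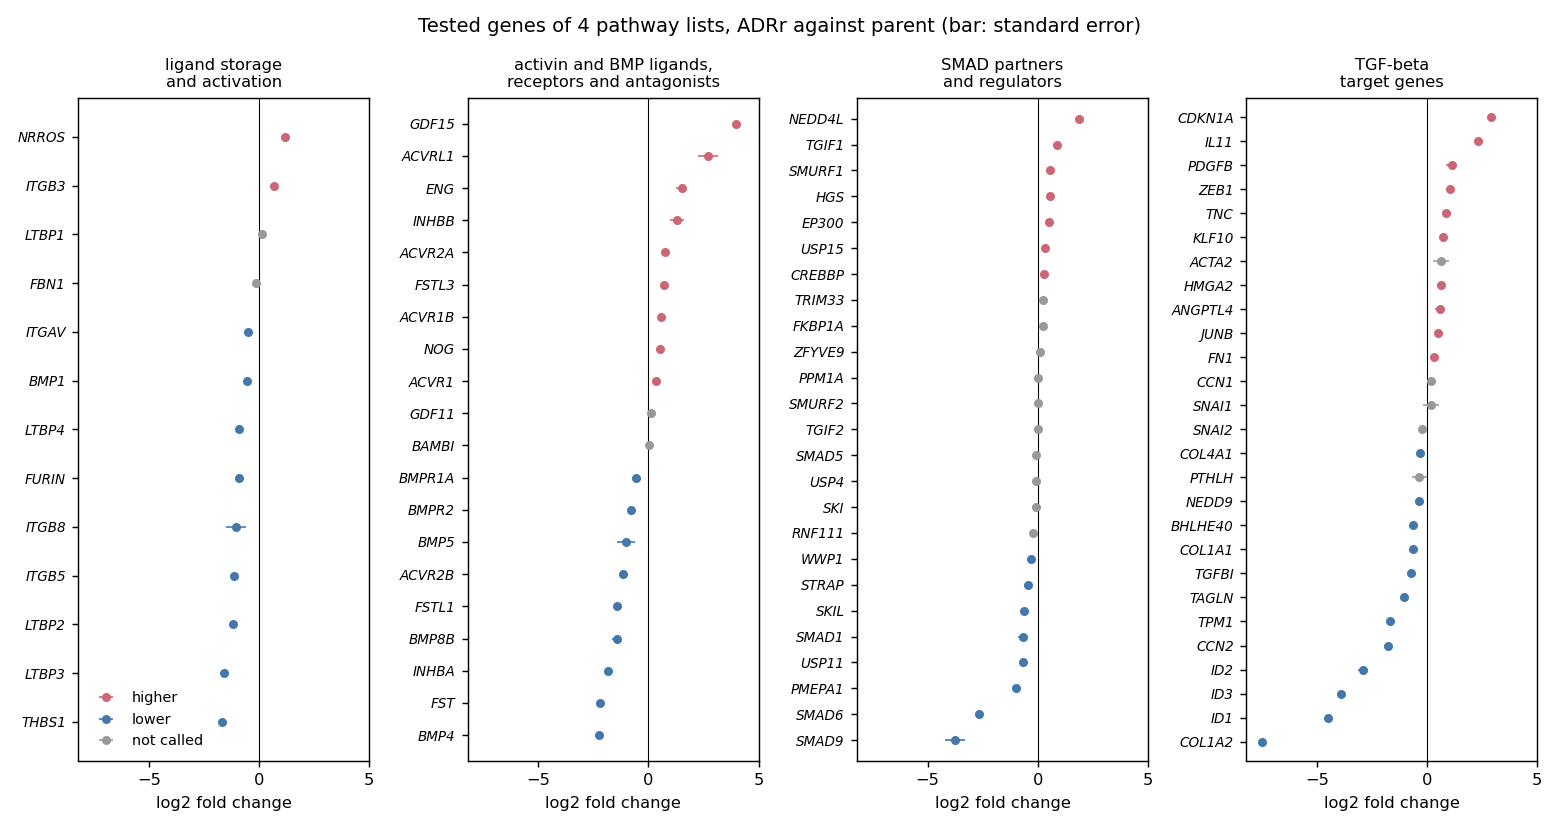
Log2 fold change (ADRr against parent, bar the standard error) of tested genes in the 4 lists, coloured by its call. Genes of ligand storage and activation lie mostly below 0, and the other lists spread to both sides, from COL1A2 at -7.47 to GDF15 at 3.99.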

How the data were processed

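RNA from 3 parent and 3 ADRr libraries of MDA-MB-231 cells had been sequenced by the authors as paired-end reads. The methods name poly(A) selection and the CORALL kit, and the sample labels another amount of input RNA. Per the methods and the submitters' processing notes, reads were cleaned, mapped with HISAT2 2.0.5 to GRCh38 and counted per gene with featureCounts 1.5.0-p3. The strand setting is not given in the sources used here. The deposited counts are whole numbers without normalization, and the deposited FPKM values were made from them by the authors.

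The count table was tested by edgeR 4.0.16 under R 4.3.3 (filterByExpr, TMM, quasi-likelihood test, no covariates) over all 15242 genes kept, with Benjamini-Hochberg adjustment over all of them. Standard errors were derived from the F statistic. Normalized counts are counts scaled to the mean effective library size of 17126283. DESeq2, the tool of the study, was an alternative (version 1.42.0), as were other scalings, filters and thresholds, limma-trend (3.58.1) on log2(FPKM + 1) or log2(FPKM + 0.1) for genes averaging 0.5 FPKM or more, a replicate block and each library left out. The tests had been tried on simulated data with 200 genes changed 2-fold. Of these, edgeR recovered 80.5%, DESeq2 78% and limma-trend 74.5%, and 5.29, 2.5 and 6.88% of their calls were false. Far fewer genes were changed there than were called in the data. Neighbours were ranked by distance between gene midpoints. Exon overlaps came from GENCODE 29, and promoter windows, found for all 10 genes, from RefSeq (GRCh38.p14).

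The 10 genes and the 4 lists were chosen with earlier results of these data known. Besides the 10 genes, the text names in each list the top 3 increases and top 3 decreases by log2 fold change among called genes whose higher group averaged 50 or more normalized counts, and CCN2, PMEPA1, SKIL, SMAD1 and SMAD6 whatever their values. A gene that this rule also selects is not reported here. No batch is given in the labels. Set tests were not run.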

Additional observations from a re-analysis of the deposited data

How the results depend on the processing

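The 9 calls among the 10 genes kept their direction under every alternative that tested them. Where calls needed 1.2 or more on the log2 scale in either direction, only SMAD2 was called higher and TGFB2 and TGFB3 lower (1 and 2 genes), against 1114 higher and 972 lower among all tested genes. At that threshold the lists had 0 higher and 3 lower for ligand storage and activation, 4 and 5 for the activin and BMP branches, 1 and 2 for SMAD partners, and 2 and 6 for target genes. This follows from the threshold itself. All other counts stayed within 1.5 times the values reported. TGFB3 was not tested where 10 counts in every library or a mean FPKM of 0.5 was required, which left 3 genes lower. Leaving out a library moved its log2 fold change between -2.17 and -1.66 and turned that of TGFBR1, which was never called, between -0.041 and 0.060. On log2(FPKM + 1), where the pseudocount shrinks low values, the named genes that moved by over 1.5 times were SMAD2 (0.83), SMAD6 (-1.53), SMAD1 (-0.25), ENG (0.55), ACVR2A (0.49), ITGB3 (0.44), PDGFB (0.54) and COL1A2 (-2.76). The median around TGFB2 was -0.20 with 25 neighbours, that around TGFBR1 0.174 with 25 and 0.034 with 100, and that around TGFBR3 0.084 with 100. These numbers of neighbours were chosen after seeing the data. The replicate numbers did not pair the libraries, since deviations of same-numbered libraries correlated at -0.05 to 0.01, and with a replicate block 5 of the 10 genes were higher and 4 lower, as without it, with 4406 higher and 4464 lower among all tested genes. TGFB3 had the lowest counts and the largest SE of the 10 genes.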
